A study of Mus musculus with 6 samples.

Results

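The 10 genes described here encode enzymes of mitochondrial fatty acid beta-oxidation: Cpt1b, Cpt2, Acadvl, Acadl, Acadm, Hadha, Hadhb, Acaa2, Eci1 and Etfdh. They were chosen by name, as the rows of the raw count files whose Ensembl identifiers map to these symbols, and make up 10 of the 39142 nuclear genes in those files. The RNA came from crude heart mitochondria of 3 Polrmt knockout mice (L/L, cre) and 3 control mice (L/L), and each library was taken as 1 mouse, as the design text counts mice. All 6 animals were C57BL/6N mice 3 to 4 weeks old with loxP sites around exon 3 of Polrmt, the gene of the mitochondrial RNA polymerase. In the knockouts exon 3 was removed by cre expressed from the promoter of muscle creatine kinase, so cells of the heart that do not use this promoter keep the gene, and the controls carried no cre. The labels also give the genotypes as Polrmt -/- for the knockouts and Polrmt +/+ for the controls, although the sample names of the controls read L/L. The replicate numbers in the labels name the mice and say nothing of litter or sequencing batch.

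Beta-oxidation is the main route by which heart muscle burns fat. Long-chain fatty acids enter mitochondria as carnitine esters, by way of the carnitine palmitoyltransferases, and are then shortened in repeated rounds of dehydrogenation, hydration, a second dehydrogenation and thiolysis, each round releasing acetyl-CoA. The electrons of the first dehydrogenation pass through the electron transfer flavoprotein and its dehydrogenase, Etfdh, to ubiquinone and so to the respiratory chain, part of which is encoded by mtDNA. All 10 enzymes are encoded in the nucleus, translated in the cytosol and imported, so the transcripts counted here are the nuclear mRNAs that came down with the crude mitochondrial fraction. Their share of the total mRNA of the cell was not measured.

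Sequences were taken where they bear on how these transcripts were counted or on which members lie together. Hadha and Hadhb, the genes of the alpha and beta subunits of the mitochondrial trifunctional protein, lie head to head on chromosome 5. Their RefSeq starts, at 30154980 on the minus strand and 30155253 on the plus strand of GRCm38.p6, have 272 bases between them. In the GENCODE M21 annotation, whose longest Hadha transcript begins further upstream, 85 bases separate the genes. This shared stretch, chr5:30155163-30155247, reads on the plus strand as follows, from RefSeq.
Hadha-Hadhb: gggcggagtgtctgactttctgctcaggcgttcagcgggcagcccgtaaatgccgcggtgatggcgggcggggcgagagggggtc

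The second set shows why counts of Hadhb need care. Gm13910 on chromosome 2 (108948806 to 108950233, GRCm38) is a processed pseudogene of Hadhb, and 3 of its 1428 bases differ from the Hadhb coding sequence of the GENCODE M21 transcripts. Counted from 1 at the first base of the start codon, with the Hadhb base first, the differences are G201A, A393G and G743A, and the longest identical run is 685 bases. Bases 171 to 231 around the first of them are shown for both genes, with the base that differs in capitals.
Hadhb: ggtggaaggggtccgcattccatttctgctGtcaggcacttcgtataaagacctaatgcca
Gm13910: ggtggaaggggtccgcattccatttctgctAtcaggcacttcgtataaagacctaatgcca

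The last set concerns the nuclear receptors, such as PPAR-alpha and the estrogen-related receptors, that are known to control beta-oxidation genes in heart. RefSeq promoters of GRCm38.p6, running from 250 bases before to 50 after each start, were found for 8 of the 10 members. The 6-base receptor site AGGTCA, searched on both strands, was in 2 of the 8, Acadvl and Acadm, against 16.3% of all 32851 promoters. Its direct repeat AGGTCANAGGTCA, the PPAR element, was in 0 of 8 and in 0.0396% of all promoters. The estrogen-related receptor element TCAAGGTCA, which contains the 6-base site, was in 0 of 8 and in 0.423% of all promoters. These are matches of letters in one window and show no binding. The 250 bases before the start are printed on the strand of the gene, with the match in capitals (TGACCT is the site on the other strand), as chr11:70015429-70015678 for Acadvl and chr3:153944644-153944893 for Acadm. The match begins 87 bases before the Acadvl start and 249 bases before the Acadm start.
Acadvl: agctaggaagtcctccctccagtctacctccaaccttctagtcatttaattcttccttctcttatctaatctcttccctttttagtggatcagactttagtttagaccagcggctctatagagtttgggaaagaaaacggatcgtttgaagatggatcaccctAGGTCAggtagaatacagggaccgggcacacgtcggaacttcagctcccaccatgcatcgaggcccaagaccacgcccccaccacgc
Acadm: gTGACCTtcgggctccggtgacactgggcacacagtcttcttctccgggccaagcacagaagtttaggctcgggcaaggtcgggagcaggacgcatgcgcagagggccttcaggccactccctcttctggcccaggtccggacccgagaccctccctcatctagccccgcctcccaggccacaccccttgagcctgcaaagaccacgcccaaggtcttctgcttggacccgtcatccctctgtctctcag

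Gene-assigned counts were between 1062030 and 1227997 in the knockout libraries and between 2867067 and 3234729 in the control libraries. Genes of mtDNA took 21.1% to 25.8% of the counts in knockouts and 79.5% to 83.5% in controls, and 5 nuclear loci holding ribosomal RNA took 80.6% to 84.9% of the nuclear counts in the 6 libraries. This left 126339 to 164004 counts per knockout library and 76949 to 109351 per control library for all other nuclear genes, so knockout values rest on more reads. Polrmt itself had 2, 5 and 1 counts in knockouts and 3, 2 and 1 in controls, counts over the whole gene that do not resolve exon 3 and check nothing. The Xist counts showed 1 female in each group, knockout 1 and control 2. All 10 cardiomyocyte markers searched for were present, while 4 of 7 adipocyte markers (Adipoq, Plin1, Ucp1 and Lep) and 6 of 7 skeletal muscle markers had no count in any library. Values below are CPM, counts per 1000000 counts of the nuclear genes with enough counts to be tested. Library totals were adjusted by the trimmed mean of M-values (TMM), and intervals are 95% intervals.

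As a group, the beta-oxidation transcripts of the set were present in the crude mitochondrial fraction of knockouts and controls. With all 6 libraries their median log2 fold change lay near that of all tested genes. Of the 10 members, 9 had enough counts to be tested. By edgeR's quasi-likelihood test with Benjamini-Hochberg adjustment over 2351 nuclear genes, 0 of the 9 were called higher and 0 lower, where 15.4% of all tested genes were called (8.46% higher and 6.93% lower). At an unadjusted p under 0.05 there were 2, Hadha and Acadl, both with higher values in knockouts, where 28.3% of all genes passed. DESeq2 and the likelihood ratio test of edgeR also called 0 of 9. The members' median log2 fold change was 0.03, with 7 above 0 and 2 below, and the median over all tested genes was -0.01 with 49.2% above 0. Fitted folds of knockout over control ran from 0.948 to 1.29, and the intervals of all 9 lay between 0.632 and 1.61. The lower bound came from Cpt2 and the upper from Acadl. A p above the threshold does not show equal levels.

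**Figure D1:**
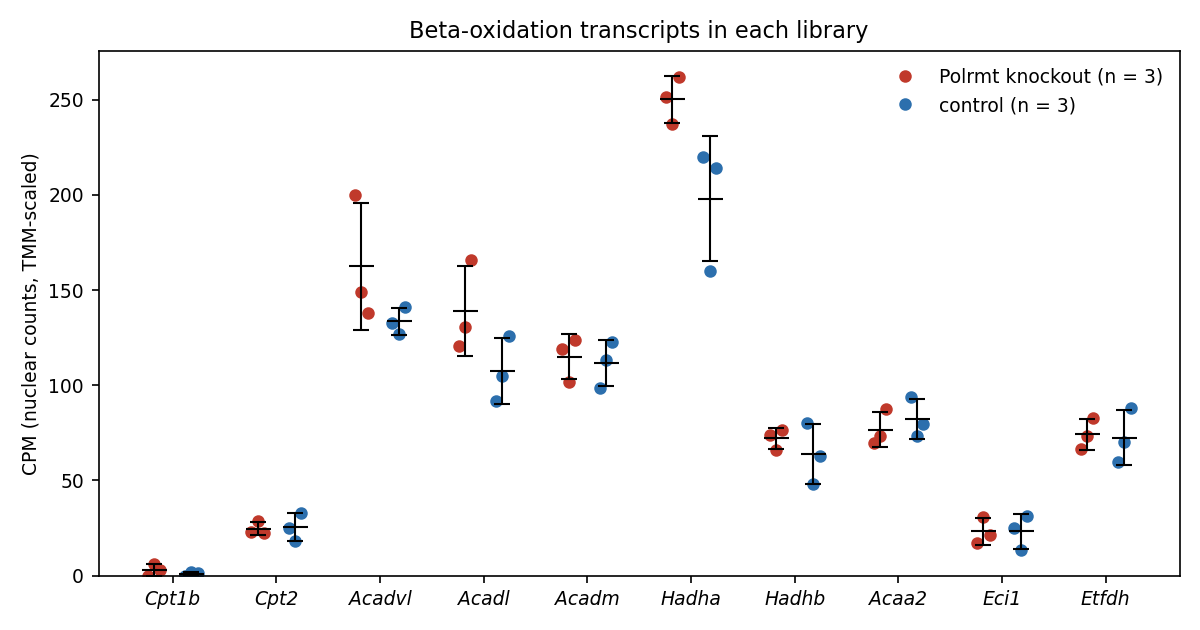
Points give the CPM of each member in the 3 knockout libraries (red, left) and the 3 control libraries (blue, right), with horizontal lines at the mean and bars of 1 SD. Hadha is the one tested member whose knockout values, from 237 to 262 CPM, lie above all control values, from 160.2 to 220.02 CPM.

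The carnitine shuttle comes first in the pathway. Cpt1b, the muscle form of the outer-membrane transferase that makes acylcarnitines (ENSMUSG00000078937, chromosome 15, 89416405 to 89425863), had 0, 5 and 3 counts in knockouts and 0, 1 and 1 counts in controls. These are too few to test, and the pooled ratio of 8 to 2 counts, scaled by library size, was 2.69 with an exact interval of 0.537 to 26.0 for counting error alone. Of the exon bases of Cpt1b, 81.4% also belong to the readthrough gene Gm44502, which runs from the neighbouring Chkb through Cpt1b on the same strand, and 93.0% of the 50-base words of its main transcript occur there. Gm44502 is not among the identifiers analysed here, and Chkb had 0, 5 and 5 counts in knockouts and 3, 0 and 1 in controls. Whether the authors' counting treated reads of Cpt1b as shared with it was not tested, and the level of the transcript was not resolved. Cpt1a, the liver form, which is also made in young heart, was at 19.9, 29.8 and 30.2 CPM in knockouts and 20.6, 23.4 and 14.9 CPM in controls, with overlapping groups (log2 fold change 0.46 ± 0.32 SE, adjusted p = 0.352 by edgeR's quasi-likelihood test).

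Cpt2, the inner-membrane transferase that turns acylcarnitines back into acyl-CoA (ENSMUSG00000028607, chromosome 4, 107903981 to 107923610), had 22.7, 28.6 and 22.6 CPM in knockouts and 25.2, 18.4 and 33.2 CPM in controls. Both the lowest and the highest library were controls, and the groups overlapped throughout. The means were 24.6 ± 3.40 CPM in knockouts and 25.6 ± 7.42 CPM in controls (SD, n = 3 each). The log2 fold change was -0.06 ± 0.30 (SE, interval -0.66 to 0.55, edgeR adjusted p = 0.929), from 11 to 23 counts per library. No exon base of Cpt2 is shared with another gene.

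The acyl-CoA dehydrogenases open each round and differ in the chain length they take. Acadvl, the very-long-chain enzyme of the inner membrane (ENSMUSG00000018574, chromosome 11, 70010183 to 70015411), had 200.2, 149 and 138 CPM in knockouts and 133, 127 and 141 CPM in controls. Knockout 1 stood highest and knockout 3 lay below control 3, so the groups overlapped. The means were 162 ± 33.2 CPM in knockouts and 134 ± 7.11 CPM in controls (SD, n = 3 each), and the log2 fold change was 0.27 ± 0.15 (SE, interval -0.04 to 0.58, edgeR adjusted p = 0.248). Exons of Dvl2, on the opposite strand, cover 42.9% of the exon bases of Acadvl, and reads there cannot be placed without strand. Dvl2 itself had 0 to 5 counts per library, against 58 to 141 for Acadvl.

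Acadl, the long-chain dehydrogenase (ENSMUSG00000026003, chromosome 1, 66830839 to 66863277), had 121, 130.4 and 166 CPM in knockouts and 91.7, 105 and 126 CPM in controls. The lowest knockout lay just under the highest control, and the other libraries were apart. The log2 fold change was 0.37 ± 0.16 (SE, interval 0.04 to 0.69), the highest among the 9 members, with an unadjusted p of 0.0264 and an adjusted p of 0.114 by edgeR's quasi-likelihood test. Acadl did not pass the threshold when any 1 library was left out, with adjusted p between 0.0575 and 0.429. Its main transcript shares no 50-base word with another gene.

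Acadm, the medium-chain dehydrogenase (ENSMUSG00000062908, chromosome 3, 153922357 to 153944632), had 119, 102 and 124 CPM in knockouts and 98.5, 113 and 123 CPM in controls. The groups covered nearly the same range. The means were 115 ± 11.7 CPM in knockouts and 112 ± 12.2 CPM in controls (SD, n = 3 each), and the log2 fold change was 0.03 ± 0.16 (SE, interval -0.29 to 0.35, edgeR adjusted p = 0.917).

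Ratios of counts between members of 1 library do not depend on how libraries are scaled. Acadl over Acadm was 1.01, 1.28 and 1.34 in knockouts and 0.930, 0.926 and 1.03 in controls, and only the lowest knockout fell among the controls. Acadvl over Acadl was 1.66, 1.14 and 0.831 in knockouts and 1.45, 1.21 and 1.12 in controls, so the spread among the knockouts exceeded that between the groups. These ratios were described and not tested.

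The trifunctional protein carries out the later steps of a round for long chains. Hadha, whose product is the subunit with the hydratase and the second dehydrogenase (ENSMUSG00000025745, chromosome 5, 30118304 to 30155162), had 177, 191 and 243 counts in knockouts and 96, 96 and 129 counts in controls. Scaled, these were 251, 237 and 262 CPM in knockouts and 220.02, 160.2 and 214 CPM in controls. All 3 knockouts lay above all 3 controls, as did the knockouts for 16.8% of all tested genes (32.8% did not overlap in either direction), and Hadha was the 1 member of the 9 whose groups did not overlap. The fold was 1.27 (interval 1.05 to 1.54, log2 fold change 0.35 ± 0.14 SE), with an unadjusted p of 0.0164 and an adjusted p of 0.0835 by edgeR's quasi-likelihood test, which misses the threshold of 0.05. Without control 2, the lowest library, the log2 fold change was 0.20 and the adjusted p 0.540.

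Hadhb, whose product is the thiolase subunit of the same complex (ENSMUSG00000059447, chromosome 5, 30155248 to 30184593), had 73.8, 65.8 and 76.6 CPM in knockouts and 80.2, 48.4 and 63.0 CPM in controls. Control 1 was the highest of the 6 libraries and control 2 the lowest, so the knockouts lay within the range of the controls. The log2 fold change was 0.20 ± 0.20 (SE, interval -0.19 to 0.59, edgeR adjusted p = 0.544). Of the 50-base words of its main transcript, 61.5% also occur in Gm13910, the pseudogene printed above, and reads there were split between the rows in a way that the counts do not resolve.

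Gm13910 had 39, 48 and 55 counts in knockouts and 30, 30 and 24 counts in controls, between 38.7% and 50.8% of the sum of the pair in every library. Added together, Hadhb and Gm13910 came to 129, 125 and 136 CPM in knockouts and 149, 98.5 and 103 CPM in controls. The summed log2 fold change was 0.18 ± 0.16 (SE, interval -0.14 to 0.51, edgeR adjusted p = 0.496), close to that of Hadhb alone. The counts of Hadha were 3.40, 3.60 and 3.42 times those of Hadhb in knockouts and 2.74, 3.31 and 3.39 times in controls. The lowest knockout lay just above the highest control in this ratio, but with the pseudogene added to Hadhb the ratios were 1.95, 1.89 and 1.93 in knockouts and 1.48, 1.63 and 2.08 in controls, and control 3 was then the highest library.

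**Figure D2:**
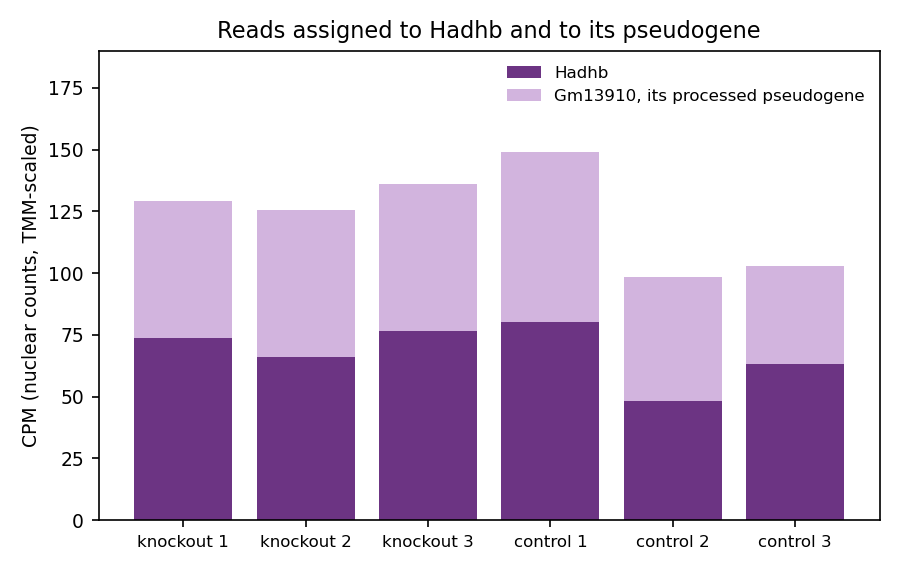
Bars give the CPM assigned to Hadhb (dark) and to its processed pseudogene Gm13910 (light) in each library, with the 3 knockouts on the left and the 3 controls on the right. The pseudogene row held 38.7% to 50.8% of the summed counts in the 6 libraries, and control 1 had the highest sum, 149 CPM.

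Acaa2, the thiolase of shorter chains (ENSMUSG00000036880, chromosome 18, 74779197 to 74806208), had 69.6, 73.3 and 87.3 CPM in knockouts and 94.0, 73.4 and 79.6 CPM in controls. The highest library was a control and the lowest 2 were knockouts, with overlapping groups. The log2 fold change was -0.08 ± 0.18 (SE, interval -0.44 to 0.28, edgeR adjusted p = 0.829), the lowest among the 9 members.

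Eci1, the isomerase that prepares unsaturated chains for the pathway (ENSMUSG00000024132, chromosome 17, 24426641 to 24439348), had 17.0, 31.1 and 21.6 CPM in knockouts and 25.2, 13.4 and 31.5 CPM in controls, from 8 to 25 counts per library. Its controls spanned more than its knockouts did. The log2 fold change of 0.01 ± 0.32 (SE) has an interval of -0.63 to 0.65, the widest of the 9, with an edgeR adjusted p of 0.993.

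Etfdh, which hands the electrons of the first dehydrogenation to ubiquinone (ENSMUSG00000027809, chromosome 3, 79603788 to 79629500), had 66.7, 73.3 and 83.0 CPM in knockouts and 59.6, 70.1 and 87.9 CPM in controls. The knockouts lay within the range of the controls. The means were 74.4 ± 8.19 CPM in knockouts and 72.5 ± 14.3 CPM in controls (SD, n = 3 each), and the log2 fold change was 0.03 ± 0.19 (SE, interval -0.35 to 0.40, edgeR adjusted p = 0.953).

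Per kilobase of the principal transcript, the members fell into a similar order in both groups. Acadvl stood at 74.9 ± 15.3 CPM per kb in knockouts and 61.6 ± 3.28 in controls, and Acadl at 72.6 ± 12.5 in knockouts and 56.2 ± 9.05 in controls (SD, n = 3 each, as for the levels that follow). Hadha was at 62.3 ± 3.09 CPM per kb in knockouts and 49.3 ± 8.20 in controls, behind Acadl in knockouts and behind Acaa2 in controls. Acadm was at 56.2 ± 5.70 CPM per kb in knockouts and 54.5 ± 5.97 in controls. Acaa2 was at 50.6 ± 6.18 CPM per kb in knockouts and 54.3 ± 6.95 in controls. The library ranges of neighbours among these 5 genes overlapped in both groups, so their order within a group was not resolved.

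Hadhb, Etfdh, Eci1 and Cpt2 came below them. Hadhb was at 35.2 ± 2.72 CPM per kb in knockouts and 31.2 ± 7.78 in controls, and Etfdh at 31.3 ± 3.45 in knockouts and 30.5 ± 6.03 in controls, overlapping each other in both groups. Eci1 was at 20.4 ± 6.29 CPM per kb in knockouts and 20.5 ± 8.11 in controls, and Cpt2 at 10.4 ± 1.43 in knockouts and 10.8 ± 3.13 in controls. The row of Cpt1b was lowest, at 1.09 ± 1.07 CPM per kb in knockouts and 0.383 ± 0.332 in controls. As 81.4% of its exon bases also belong to Gm44502, its place below Cpt2 holds for the counted row alone. Neighbours whose ranges were apart were Acaa2 over Hadhb, Etfdh over Eci1, Eci1 over Cpt2 and Cpt2 over Cpt1b in knockouts, and Hadha over Hadhb and Cpt2 over Cpt1b in controls. The place of Hadhb depends on the pseudogene: with the counts of Gm13910 added, the pair was at 63.6 ± 2.57 CPM per kb in knockouts and 57.0 ± 13.7 in controls (SD, n = 3 each). It then overlapped Hadha in both groups, lay above Acaa2 in every knockout and overlapped Acaa2 in controls, so the gaps above Hadhb hold for its own row alone. The order also depends on the length used: over the union of all annotated exons, which for Hadha is 8730 bases against 4017 in its principal transcript, Acadl ranked first in knockouts and Acaa2 in controls.

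Together the 10 members had 663, 722 and 913 counts in knockouts and 361, 438 and 543 counts in controls. Of the nuclear counts outside the 5 ribosomal RNA loci they made up 0.525%, 0.502% and 0.557% in knockouts and 0.469%, 0.407% and 0.497% in controls. The lowest knockout lay just above the highest control in this share, and the means were 0.528% ± 0.0274 in knockouts and 0.457% ± 0.0460 in controls (SD, n = 3 each). In summed CPM the groups met, at 897 to 984 in knockouts and 731 to 901 in controls. No p is given for a sum over chosen genes. Control 2 had the lowest mean of the 9 tested members, -0.27 on the centred log2 CPM scale, with the other 5 libraries between -0.04 and 0.12.

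Among 1131 well-expressed protein-coding nuclear genes, the 5 whose log2 CPM ran most like that mean over the 6 libraries were Rps4x, a ribosomal protein gene (Pearson r = 0.957), Tmem38a, a cation channel of the sarcoplasmic reticulum (0.956), Ppp1cb, a catalytic subunit of protein phosphatase 1 (0.956), Arfgef1, an exchange factor for ARF GTPases (0.955), and Dlat, the E2 subunit of pyruvate dehydrogenase (0.945). These values describe 6 libraries that also share their depth and scaling, and they were picked as the highest of 1131. None of the 5 genes was called between the groups.

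Of the other genes of mitochondrial beta-oxidation, 12 of 15 could be tested. By edgeR's quasi-likelihood test 0 were called higher and 0 lower, where 15.4% of all tested genes were called. DESeq2 also called 0 of the 12. At an unadjusted p under 0.05 there was 1, Etfb, where 28.3% of all tested genes passed. The median log2 fold change of the 12 was -0.10, with 5 above 0. Etfb, the beta subunit of the electron transfer flavoprotein, had 35.5, 34.8 and 42.1 CPM in knockouts and 39.0, 53.4 and 69.7 CPM in controls, with an overlap between knockout 3 and control 1. The fitted log2 difference was -0.55 ± 0.23 (SE), with an adjusted p of 0.0926. Hadh, the short-chain hydroxyacyl-CoA dehydrogenase, had 46.9, 49.7 and 52.8 CPM in knockouts and 61.9, 61.8 and 71.3 CPM in controls. All its knockouts lay below all controls, as for 15.9% of tested genes, and the edgeR adjusted p was 0.205 (log2 fold change -0.38 ± 0.20 SE).

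Acads, the short-chain acyl-CoA dehydrogenase, had means of 14.8 ± 5.66 CPM in knockouts and 21.7 ± 4.54 CPM in controls (SD, n = 3 each; edgeR adjusted p = 0.317). Acad9, which also acts in the assembly of complex I, had 16.3 ± 3.47 CPM in knockouts and 8.74 ± 4.40 CPM in controls (SD, n = 3 each; edgeR adjusted p = 0.280). Both overlapped between the groups, from 2 to 15 counts per library. Etfa, the partner subunit of Etfb, was at 49.5 ± 4.07 CPM in knockouts and 53.3 ± 8.41 CPM in controls (SD, n = 3 each; edgeR adjusted p = 0.824). Summed over the 15 genes, the levels were 401 to 418 CPM in knockouts and 419 to 451 CPM in controls.

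**Figure D3:**
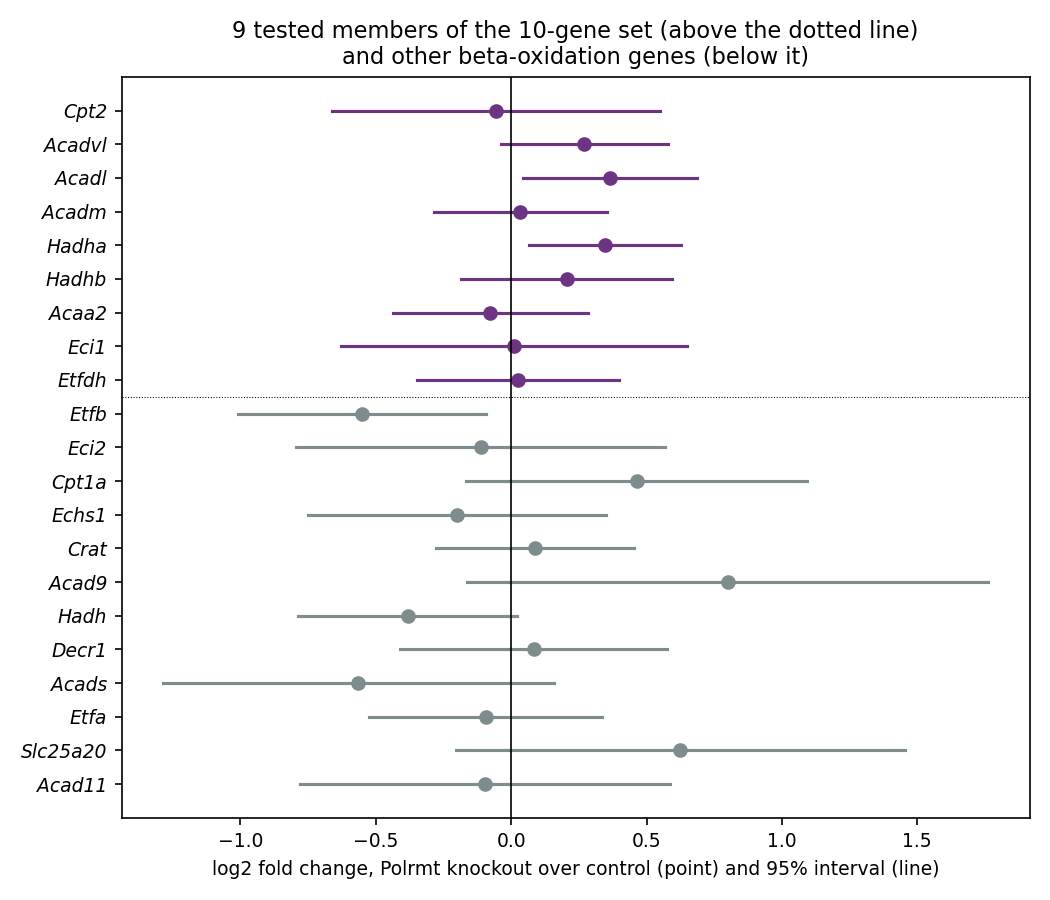
Points give the log2 fold change of knockout over control for the 9 tested members (purple, above the dotted line) and 12 other beta-oxidation genes (grey, below it), and lines give the 95% interval. The intervals of Hadha and Acadl among the members and of Etfb among the other genes leave out 0, and none of these 3 passed adjustment over all genes.

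Of 23 genes that supply fatty acids or regulate their use, 16 were tested. By edgeR's quasi-likelihood test 3 rose and 1 fell, where 8.46% of all tested genes were called higher and 6.93% lower, with a median log2 fold change of 0.31 and 9 above 0. Acot2, a mitochondrial thioesterase that cleaves acyl-CoA, had 46.9, 37.3 and 48.5 CPM in knockouts and 13.8, 3.34 and 6.64 CPM in controls. Every knockout lay above every control (log2 fold change 2.56 ± 0.37 SE, edgeR adjusted p = 4.40e-08). Acot2 has close paralogs such as Acot1, between which reads may have been split. Fabp3, the heart fatty acid-binding protein, had 261 ± 11.4 CPM in knockouts and 144 ± 13.9 CPM in controls (SD, n = 3 each; edgeR adjusted p = 2.32e-06). Plin5, a coat protein of lipid droplets, had 21.0 ± 2.11 CPM in knockouts and 9.23 ± 5.96 CPM in controls (SD, n = 3 each; edgeR adjusted p = 0.0292). Lpl, the lipase that frees fatty acids from blood lipoproteins, had 370 ± 92.8 CPM in knockouts and 841 ± 112 CPM in controls (SD, n = 3 each), lower in every knockout (log2 fold change -1.18, edgeR adjusted p = 1.12e-08). Acot2 had 6, 2 and 4 counts in controls and Plin5 had 7, 3 and 4. Both passed the filter on low counts through the knockouts. In this list 2 genes were called higher by DESeq2, without knockout 1 and without control 2. With mtDNA in the fit, without control 1 and with a replicate block, 4 were called higher.

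The transcription factors of the pathway and their coactivators had few counts. On the log2 scale the difference of Esrra, an estrogen-related receptor, was 0.64 ± 0.37 (SE, edgeR adjusted p = 0.259), and that of Rxra, the partner of the PPARs, was -0.71 ± 0.35 (SE, edgeR adjusted p = 0.170, unadjusted p = 0.0471). The coactivator genes Ppargc1a and Ppargc1b were at 0.33 ± 0.28 and -0.02 ± 0.37 on the same scale (SE, edgeR adjusted p = 0.488 and 0.981). Esrrg, another estrogen-related receptor, had 49 counts in knockouts and 12 in controls over 3 libraries each, a scaled ratio of 2.75 (exact interval 1.44 to 5.67, counting error only), and was not tested across libraries. Ppara, the gene of PPAR-alpha, had 25 counts in knockouts and 17 in controls, a ratio of 0.989 (0.513 to 1.95). Ppard had a ratio of 1.48 (0.672 to 3.50) and Esrrb one of 0.931 (0.431 to 2.07). The genes of this paragraph were named after their values were seen.

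The TCA cycle, which takes up the acetyl-CoA, had 16 of 16 genes tested, with a median log2 fold change of 0.17. In this list 1 gene was called higher and 0 lower, where 8.46% of all tested genes were called higher and 6.93% lower. The called gene was Idh3a, a subunit of isocitrate dehydrogenase, at 111 ± 5.22 CPM in knockouts and 78.5 ± 11.9 CPM in controls (SD, n = 3 each; edgeR adjusted p = 0.0337). No gene of this list was called by DESeq2, when scaled on the nuclear total, when all genes were fitted together with mtDNA, without the filter on low counts, or without knockout 2, knockout 3, control 1 or control 2. Ogdh, of the oxoglutarate dehydrogenase complex, had 591 ± 19.5 CPM in knockouts and 503 ± 49.4 CPM in controls (SD, n = 3 each; edgeR adjusted p = 0.232). Idh3g, another subunit of isocitrate dehydrogenase, had a log2 fold change of 0.42 and an adjusted p of 0.270.

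In breakdown of branched-chain amino acids, which also feeds electrons to Etfdh, 5 of 16 genes were tested and 2 fell, beside 6.93% of all tested genes. These were Ppm1k, the phosphatase that activates the branched-chain dehydrogenase, at 11.8 ± 1.86 CPM in knockouts and 35.7 ± 2.95 CPM in controls (edgeR adjusted p = 1.72e-04), and Ivd, isovaleryl-CoA dehydrogenase, at 20.4 ± 7.46 CPM in knockouts and 47.1 ± 4.94 CPM in controls (edgeR adjusted p = 4.76e-04; SD, n = 3 each). Ppm1k had 7, 11 and 11 counts in knockouts and passed the filter on low counts through the controls. Bckdha, a subunit of the branched-chain dehydrogenase (log2 fold change -0.25, edgeR adjusted p = 0.713), and Aldh6a1, an enzyme of valine breakdown (-0.39, adjusted p = 0.806), overlapped between the groups.

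**Figure D4:**
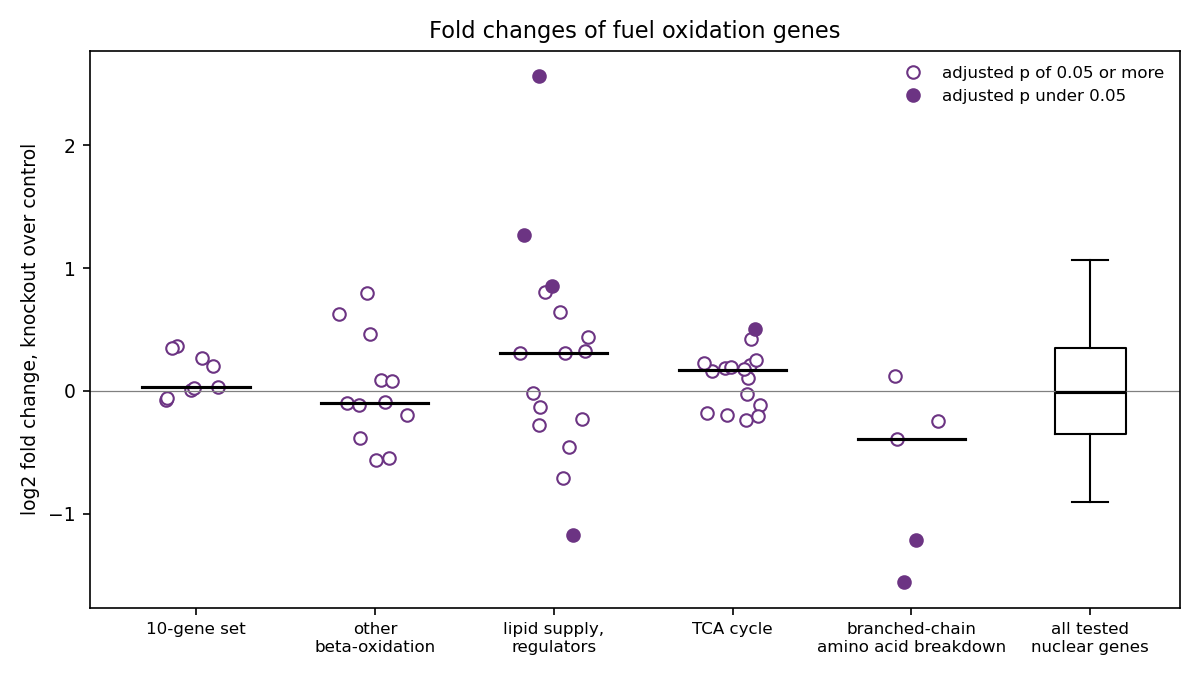
Each circle is the log2 fold change of 1 tested gene, knockout over control, in the 10-gene set and 4 related lists, filled where the adjusted p is under 0.05, with a line at the median. The box shows the median and quartiles of all 2351 tested nuclear genes, with whiskers at the 5th and 95th percentiles, and the 9 tested members lie between -0.08 and 0.37 with 0 filled circles.

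Markers of the cell types of the heart moved between the groups, and their part in the values above was not tested. In these crude mitochondria, fewer cells of a type, less RNA per cell and less of it in the fraction cannot be told apart. Summed over 10 cardiomyocyte markers, the levels overlapped, at 22419 to 23493 CPM in knockouts and 21417 to 27304 CPM in controls. Ttn and Myh6 made up most of this sum, at means of 10618 and 7915 CPM in knockouts and 10689 and 7910 CPM in controls. The median log2 fold change of the 10 markers was -0.16, with 3 above 0 and 7 below. By edgeR's quasi-likelihood test 1 was called higher (Mybpc3, log2 fold change 0.62). The 4 called lower were Ryr2 at -1.22, Pln at -1.08, Actc1 at -0.62 and Tnnt2 at -0.41. Of all tested genes 8.46% were called higher and 6.93% lower. Endothelial markers summed to 219 to 261 CPM in knockouts and 274 to 319 CPM in controls, and smooth muscle markers to 193 to 287 CPM in knockouts and 324 to 380 CPM in controls. Macrophage markers summed to 38.3 to 59.3 CPM in knockouts and 91.8 to 154 CPM in controls. In these 3 sums every knockout lay below every control, as for 15.9% of all tested genes taken singly. Fibroblast markers overlapped, at 1675 to 1911 CPM in knockouts and 1893 to 2058 CPM in controls. By edgeR's quasi-likelihood test 2 of 8 tested fibroblast markers fell (Dpt at -1.41 and Pdgfra at -0.64), beside 6.93% of all tested genes. Of 4 tested smooth muscle markers 2 fell (Acta2 at -1.02 and Pdgfrb at -0.76). Only 2 of 7 macrophage markers were tested, and 2 fell (Csf1r at -1.41 and Lyz2 at -1.08). Dpt had 8, 11 and 15 counts in knockouts, Csf1r 9, 10 and 15, and Lyz2 9, 13 and 16. These genes passed the filter on low counts through the controls. Of 5 tested endothelial markers 0 were called. An unadjusted p under 0.05 was found for 2 (Kdr at -0.50 and Tek at -0.66), beside 28.3% of all tested genes. Red blood cell markers were at 165 to 301 CPM in knockouts and 154 to 335 CPM in controls, with 0 of 4 called and 0 at an unadjusted p under 0.05.

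The authors' deposited table, which was computed over 6319 genes, lists the same 9 members and not Cpt1b. At a false discovery rate under 0.05, 0 of them are higher and 0 lower in the authors' deposited table, beside 5.12% of its nuclear genes. In the authors' deposited table Hadha has a log2 fold change of 0.40 with a false discovery rate of 0.0739, Acadl 0.41 with 0.228 and Acadvl 0.30 with 0.402. The choice of total matters more than the test: divided by all counts with mtDNA included and no further scaling, all 9 members had log2 fold changes of 1.92 to 2.35, while the median of all tested genes moved by 1.99. Relative to that shift the members' median differed from the median of all genes by -0.04. Of 2351 tested nuclear genes, 199 were called higher and 163 lower here, and 138 higher and 171 lower on the nuclear total without TMM. On the total of all counts 3346 were tested, with 3324 called higher and 2 lower.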

How the data were processed

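RNA from crude heart mitochondria of 3 Polrmt knockout and 3 control mice was isolated with the miRNeasy kit, made into TruSeq libraries and sequenced paired-end on a MiSeq, per the labels' protocols. The deposited raw files hold whole-number counts per gene. Per the submitters' processing notes the authors worked with build GRCm38; edgeR 3.11.2, R 3.2.0, featureCounts 1.3.5-p4 and HISAT 0.1.6 are listed without roles. Strand setting, annotation release and the handling of multiple alignments are not stated there or in the labels. A comparison deposited by the authors gives log2 fold changes, a likelihood ratio score and p-values, per the file headers, and normalised values that the authors rounded were not used.

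The members and gene lists were chosen with earlier results of these data known. Symbols came from GENCODE M21, which named all but 1486 of the 39142 nuclear identifiers. Rows of mtDNA were left out, and filterByExpr (minimum count 10, minimum total 15) kept 2351 nuclear genes. A gene could pass this filter through either group alone. Knockout was compared with control by edgeR 4.0.16 in R 4.3.3 (TMM, robust quasi-likelihood fit, no covariate, 2-sided, Benjamini-Hochberg adjustment), with a call at an adjusted p under 0.05. The SE and interval are those implied by the F statistic. Values of 3 counts lay between 3.23 and 6.88 CPM. Untested genes have exact binomial intervals on pooled counts, which cover counting error only, since reads carry no molecular identifiers. Alternatives included DESeq2 1.42.0, other scalings, filters, left-out libraries, a replicate block, and, chosen after seeing the data, a sex term and a Hadhb row summed with its pseudogene. The procedure was tested on simulated data, and no outcome of that is given here. Chi-square per degree of freedom between libraries of one group was 1.30 to 6.26, above counting noise, so none was counted as a copy of another.

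Named genes are all members, from each related list up to 4 tested genes with the smallest p and those that a small count turns on, and the 5 genes of most like pattern, of which 1 list gene is not reported here; Cpt1a, Etfa, Chkb, Dvl2, Gm13910 and the transcription factors and coactivators were added after their values were seen.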

Additional observations from a re-analysis of the deposited data

How the results depend on the processing

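Outside the total of all counts and the left-out libraries, 90 values of the 9 members under 10 alternatives held 9 that turned sign, and 0 passed the threshold (lowest adjusted p 0.0694). All that turned were near 0: Eci1 at -0.0051 with DESeq2's size factors, -0.083 on the nuclear total, -0.066 with mtDNA in the fit, -0.015 by DESeq2 and -0.034 with a sex term, Etfdh at -0.069 on the nuclear total and -0.051 with mtDNA, and Acadm at -0.064 and -0.043 under the same settings. On the total of all counts 9 of 9 tested members and 13 of 13 other beta-oxidation genes were called higher. Cpt2 at 1.93 and Acaa2 at 1.92 turned sign. Nearly all nuclear genes did the same: of 3346 tested in that setting, 3326 were called (3324 higher, 2 lower). That setting by construction sets nuclear genes against a total that is mostly mtDNA in controls. DESeq2 called 143 nuclear genes, 93 higher and 50 lower, and without the low-count filter, which raised the genes tested to 14207, 99 were lower; the cause was not tested for DESeq2.

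With each library left out in turn, 0 members were called. The members' median lay above that of all tested genes by 0.021 without control 2 and by up to 0.216 without control 3. With all 6 libraries this gap was 0.042. The log2 fold changes ran from 0.20 to 0.42 for Hadha, 0.23 to 0.51 for Acadl, 0.12 to 0.40 for Acadvl, 0.03 to 0.38 for Hadhb, -0.033 to 0.13 for Acadm, -0.075 to 0.20 for Etfdh, -0.17 to 0.017 for Acaa2, -0.28 to 0.22 for Cpt2 and -0.31 to 0.35 for Eci1. Nuclear calls ran from 257 to 340, with 151 to 195 higher and 106 to 145 lower, the fewest in number without knockout 1. The genes tested differed too, from 2191 to 2257 without a knockout and from 3171 to 3312 without a control. Without knockout 1, 257 of 2257 were called, and without control 2, 276 of 3171, which is a smaller share. Whether the same replicate numbers mark pairs was not resolved. Deviations from the group means of same-numbered libraries correlated at 0.0008, 0.0168 and 0.0650. Those of differently numbered libraries correlated at -0.0446 to 0.0252. A replicate block gave 356 nuclear calls and 0 among the members, and changed no other call of theirs. The depth, 76949 to 164004 nuclear counts outside ribosomal RNA loci per library, leaves Cpt1b untested and Cpt2 and Eci1 with the widest intervals.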
